A study of Rattus norvegicus with 24 samples.

Results

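The 8 genes described here, Pla2g12a, Rab30, Stac3, Upp2, Pkp2, Tcea3, Alox15 and Sntb1, were picked by symbol for their large differences between rotenone and control liver in these same arrays, out of 22093 genes with a symbol on the array. All 8 were found, each with 1 transcript cluster, the array's unit for the transcripts of one locus. Their levels with rotenone are therefore given as a description, with standard errors and no test, while tests are given for control livers of different days, for relatives and partners of the 8 genes and for cell type markers. The samples were livers of male RccHan Wistar rats, aged 7 to 8 weeks when assigned to the groups. The rats received chow with 400 ppm rotenone for 1, 3 or 14 days or untreated chow (0 ppm) for the same times. All were fed freely. Each of the 6 groups had 4 livers, each on its own Rat Transcriptome Array 1.0, which gives 24 arrays in all. No group on a restricted amount of untreated chow was among the samples, so a lower food intake and rotenone itself cannot be told apart. Values are log2(intensity + 1), so that a difference of 1 is a doubling of the signal.

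Rotenone is a plant-derived inhibitor of complex I, the enzyme through which NADH enters the mitochondrial respiratory chain. The 8 genes belong to no single pathway. Pla2g12a, Upp2 and Alox15 encode enzymes: Pla2g12a a secreted phospholipase A2, which releases a fatty acid from membrane phospholipid, Upp2 a uridine phosphorylase of liver, which splits uridine into uracil and a ribose phosphate, and Alox15 a lipoxygenase, which adds oxygen to polyunsaturated fatty acids and is known from maturing red cells, eosinophils and macrophages. Rab30 is a small GTPase of the Golgi apparatus, Stac3 an adaptor best known from the calcium channel complex of skeletal muscle, Sntb1 (beta-1-syntrophin) an adaptor of the dystrophin complex under the plasma membrane, Pkp2 (plakophilin 2) a plaque protein of desmosomes, and Tcea3 a transcript elongation factor of the TFIIS family, which helps a stalled RNA polymerase II to resume.

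The RefSeq tables (build GRCr8) held start-site windows for 5 of the 8 genes, all on the + strand. The sequences below show the strand of the gene, 5′ to 3′, and end at the base before the annotated gene start or, for the short stretches, lie around a match near a transcript start. Capitals mark a match to a motif looked for on both strands. A match describes these letters and is not a binding site. These 3 stretches before the gene start are shown because Pla2g12a and Rab30 were higher with rotenone on every day and Tcea3 changed its direction between days.
Pla2g12a, chr2:221110472-221110721: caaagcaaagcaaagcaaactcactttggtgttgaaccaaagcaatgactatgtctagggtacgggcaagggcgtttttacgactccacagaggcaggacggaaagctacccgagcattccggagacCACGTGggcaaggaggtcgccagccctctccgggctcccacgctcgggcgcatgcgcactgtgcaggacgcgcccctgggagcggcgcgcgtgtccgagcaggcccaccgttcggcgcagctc
Rab30, chr1:156215887-156216136: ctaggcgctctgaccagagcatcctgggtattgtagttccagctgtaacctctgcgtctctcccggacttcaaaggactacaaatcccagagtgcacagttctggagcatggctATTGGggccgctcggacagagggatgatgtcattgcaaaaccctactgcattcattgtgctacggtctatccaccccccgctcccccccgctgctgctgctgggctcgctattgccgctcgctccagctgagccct
Tcea3, chr5:153760177-153760400: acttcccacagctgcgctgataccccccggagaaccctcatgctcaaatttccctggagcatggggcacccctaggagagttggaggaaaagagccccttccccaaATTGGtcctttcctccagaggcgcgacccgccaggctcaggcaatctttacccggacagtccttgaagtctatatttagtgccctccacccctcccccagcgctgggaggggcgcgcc
The capitals in Pla2g12a are an E-box, CACGTG, which reads the same on both strands and occurs in 5.59% of 33469 windows of that kind. In Rab30 and Tcea3 they are a CCAAT box on the opposite strand, ATTGG as printed, which 34.0% of windows hold. Of Stac3 and Upp2, the genes with the largest decrease and one of the largest increases, short stretches are shown.
Stac3, chr7:65228354-65228380: ctgcttgggtGTAAACActcagagaag
Upp2, chr3:63681705-63681730: gttcacacaaAGAACAacaaaaacag
The capitals in Stac3 are the forkhead motif TGTTTAC on the opposite strand, GTAAACA as printed, found in 3.21% of windows. Those in Upp2 are a glucocorticoid receptor motif, AGAACA, found in 17.5% of windows. A nuclear receptor motif (AGGTCA, 14.1% of windows) matched in a window of Stac3 and a second one of Rab30, a CRE core (TGACG, 18.2% of windows) in that same second window of Rab30, and no window of these genes held the TATA box TATAAA.

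The arrays were alike in overall level. Each array's mean correlation with the others of its group lay between 0.992 and 0.995. Only the brighter clusters, with a mean level not under the median one, entered this correlation. The 1153 negative control probe sets were told by their names. Their median lay between 5.01 and 5.43 per array on the log2 scale and serves here as the level of background. The mean of 11 measured hepatocyte markers lay between 17.10 and 17.64 in all 24 livers, with 17.10 to 17.34 in rotenone and 17.38 to 17.53 in control livers on day 14, which did not overlap. Of these markers Apoa1 fell by 1.90 on day 14 (limma, adjusted p = 1e-06), and the part of this shift in the values of the 8 genes was not tested. In a piece of tissue, fewer cells of a type and less RNA per cell cannot be told apart. Of 110 measured markers of 10 cell type lists, 10 rose and none fell on day 1, 1 rose and 11 fell on day 3, and 2 rose and 17 fell on day 14, among them 6 of 11 sinusoidal endothelial markers that rose on day 1. The 10 calls on day 1 depended on single livers, with 2 left without rotenone replicate 1 or 2, 4 without rotenone replicate 3 and 3 without control replicate 1, 3 or 4 of that day. A pair of livers stood out in several of the 8 genes and are named with their values: control replicate 3 on day 14 and rotenone replicate 1 on day 14.

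On day 1, 6 of the 8 genes were higher and 2 lower with rotenone. On days 3 and 14, 5 were higher and 3 lower. The 4 rotenone livers and 4 control livers did not overlap for 6 of the 8 genes on day 1 (18.8% of all genes), for 7 on day 3 (16.7% of all genes) and for 7 on day 14 (15.4% of all genes). The genes were chosen for this contrast, so nothing is read from those counts. The median size of the change over the 8 genes was 1.39 on day 1, 1.90 on day 3 and 2.98 on day 14 on the log2 scale, beside 0.15, 0.13 and 0.13 over all genes. The 8 genes followed 2 kinds of course. By mean, Pla2g12a, Rab30, Upp2 and Sntb1 were higher and Stac3 lower on every day. Pkp2, Tcea3 and Alox15 changed the sign of their mean difference between day 1 and days 3 and 14. For Alox15 the groups overlapped on day 1.

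**Figure D1:**
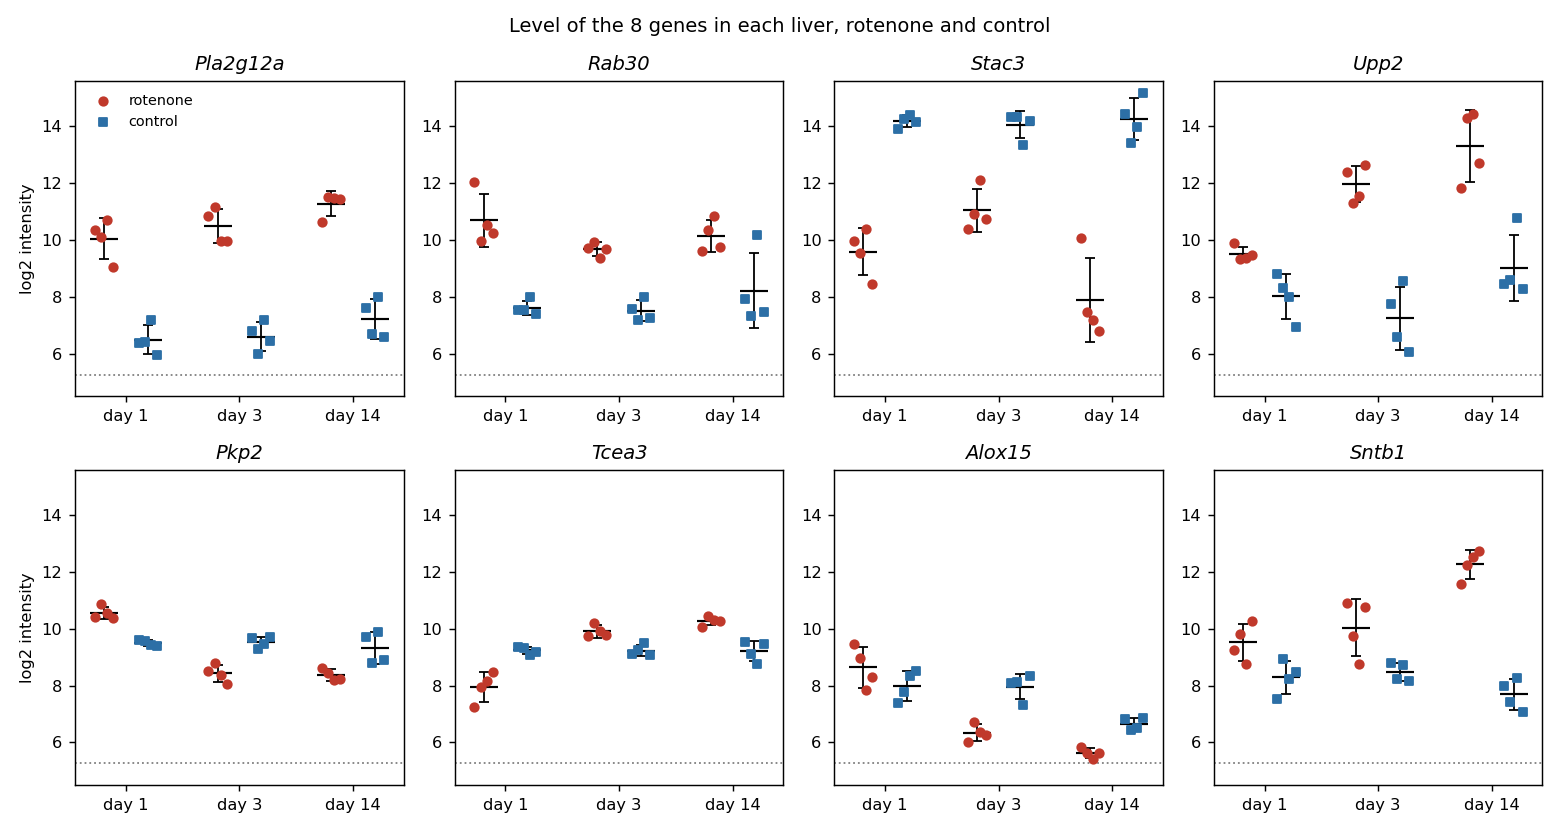
Log2 intensity of each of the 8 genes in every liver by day, rotenone livers as circles left of control livers as squares, with horizontal lines for the mean of 4 livers and bars for the SD. The dotted line is the middle of the arrays' negative control medians, which ran between 5.01 and 5.43. Stac3 shows the widest gap, with rotenone livers on day 14 between 6.81 and 10.08 and control livers between 13.43 and 15.17.

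Pla2g12a was 11.9-fold, 14.9-fold and 16.6-fold higher with rotenone on days 1, 3 and 14. Its levels on day 1 were 10.34, 10.11, 10.72 and 9.05 in rotenone livers, against 6.39, 6.42, 7.20 and 5.94 in control livers. On day 3 rotenone livers had 10.86, 11.17, 9.97 and 9.98, and control livers 6.80, 5.98, 7.17 and 6.45. On day 14 the values were 10.64, 11.53, 11.48 and 11.46 with rotenone, and 7.62, 6.69, 8.00 and 6.59 in control. Every rotenone liver lay above every control liver on all 3 days, and the closest pair, on day 1, was 1.86 apart. The difference was 3.57 ± 0.38 on day 1, 3.90 ± 0.38 on day 3 and 4.05 ± 0.38 on day 14 (log2, moderated SE, n = 4 per group). The effect on day 14 minus that on day 1 was 0.48 ± 0.54, within its own error. The control livers were dim: they lay above 64.5% to 93.1% of the negative control sets, so their true level may be lower and the fold larger than given. By mean, the order of the groups was rotenone day 14, day 3 and day 1, then control day 14, day 3 and day 1, and only the step between rotenone day 1 and control day 14 separated neighbours without overlap.

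Its relatives did not share this change as a group. Of 16 measured phospholipase A2 genes and their receptor, 1 rose on day 1, 1 rose on day 3, and 2 rose and 1 fell on day 14 (limma, adjusted p under 0.05 over all clusters), and their median change was -0.01, 0.02 and -0.08. Over all genes, 9.41% passed on day 1, 6.64% on day 3 and 9.31% on day 14. The gene that rose on each day was Pla2g15, the lysosomal phospholipase A2, by 2.15 ± 0.20, 1.87 ± 0.20 and 1.98 ± 0.20 (limma, adjusted p = 1.2e-06, 8.3e-06 and 2e-06). The sequence neighbour Pla2g12b, which lacks the enzyme activity, averaged 10.53 ± 0.13 in rotenone and 10.25 ± 0.26 in control livers on day 14 (SD, n = 4 each), and its changes of 0.17, 0.08 and 0.28 did not pass on any day (limma, adjusted p = 0.57, 0.85 and 0.26).

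Upp2 was 2.82-fold higher on day 1, 26.6-fold on day 3 and 19.7-fold on day 14. Its levels on day 1 were 9.88, 9.33, 9.38 and 9.46 with rotenone, against 8.81, 8.32, 8.01 and 6.93 in control. On day 3 the rotenone livers reached 12.38, 11.32, 11.56 and 12.64, and the control livers 7.74, 6.60, 8.55 and 6.06. On day 14 rotenone livers had 11.82, 14.29, 14.44 and 12.71, against 8.46, 8.59, 10.77 and 8.26 in control livers. No control liver reached a rotenone liver of its own day. The control livers spread widely, and replicate 3 on day 14 stood more than 2 above the other three of its group. The difference was 1.49 ± 0.61, 4.74 ± 0.61 and 4.30 ± 0.61, and 4.88 on day 14 without that control liver. Control replicates 2 and 4 on day 3 were dim, above only 77.5% and 69.5% of the negative control sets, so the fold on that day may be understated. The effect on day 3 exceeded that on day 1 by 3.24 ± 0.86, and by mean the rotenone livers of days 14 and 3 lay apart from all other groups, while rotenone day 1, control day 14, control day 1 and control day 3 followed each other with overlap.

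Most other genes of uridine and pyrimidine metabolism did not pass, but the share that did was above that of all genes, most so on day 1. Of 31 measured, 3 rose and 8 fell on day 1, 2 rose and 3 fell on day 3, and 2 rose and 2 fell on day 14. These were 35.5%, 16.1% and 12.9% of the list, beside 9.41%, 6.64% and 9.31% of all genes. The median changes were -0.08, 0.00 and 0.02. Tymp, the thymidine phosphorylase, fell by 1.45 (SE 0.24, limma, adjusted p = 0.00054) on day 1. Tk1, the thymidine kinase of dividing cells, fell by 1.45 (SE 0.21, limma, adjusted p = 0.00019). Upb1, the last enzyme of uracil breakdown, fell by 1.10 (SE 0.09, limma, adjusted p = 4.7e-07). Tk1 fell by 1.00 (SE 0.21) on day 3 as well, and with it Tyms, the thymidylate synthase, by 0.64 (SE 0.14), with adjusted p = 0.0081 and 0.0083 in limma. Ctps2, a CTP synthase, rose by 1.23 ± 0.18 on day 14 (limma, adjusted p = 0.00019). Slc28a2, a concentrative nucleoside transporter that carries uridine into cells, fell by 1.64 (SE 0.38, limma, adjusted p = 0.012) on day 14, a call that ended without rotenone replicate 4 of that day (limma, adjusted p = 0.058). Upp1, the other uridine phosphorylase, stayed at background, with means between 5.17 and 5.36 in the 6 groups, and its changes of 0.03, -0.09 and -0.19 did not pass (limma, adjusted p = 0.90, 0.77 and 0.28).

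Alox15 was 1.57-fold higher on day 1, 3.08-fold lower on day 3 and 2.04-fold lower on day 14. The day 1 values were 9.46, 8.96, 7.85 and 8.30 with rotenone, against 7.38, 7.76, 8.32 and 8.51 in control. Rotenone livers of day 3 had 6.02, 6.72, 6.36 and 6.25, and control livers 8.09, 8.11, 7.33 and 8.32. By day 14 rotenone livers were down to 5.83, 5.62, 5.42 and 5.63, and control livers had 6.82, 6.43, 6.49 and 6.86. The groups overlapped on day 1 and were apart on days 3 and 14, where every rotenone liver was lower. The difference was 0.65 ± 0.28, -1.62 ± 0.28 and -1.03 ± 0.28. On day 14 the rotenone livers lay above only 55.1% to 63.9% of the negative control sets, near the middle of the background, so the fold on that day may be understated. The rotenone livers of day 3 (above 65.3% to 80.5%) and the control livers of day 14 (above 71.4% to 81.3%) were dim as well. The fold on day 3 may thus be understated too. By mean, rotenone day 1, control day 1 and control day 3 formed an overlapping top, control day 14 and rotenone day 3 an overlapping middle, and rotenone day 14 lay below all of them.

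Because Alox15 is made by maturing red cells, eosinophils and macrophages, markers of these cells were measured beside it. Of 10 erythroid markers none passed on day 1, 3 fell on day 3 and 4 fell on day 14, and none rose. Among them were Alas2, the first enzyme of haem synthesis in red cells, which fell on days 3 and 14 (changes of -1.53 and -2.79, limma, adjusted p = 0.026 and 0.00011), and Slc4a1, the anion exchanger of the red cell membrane, which fell by 1.09 on day 3 (limma, adjusted p = 0.009). The mean of the 10 markers ranged over 6.35 to 7.17 in rotenone and 6.83 to 7.12 in control livers on day 1, 6.14 to 6.35 in rotenone and 6.56 to 6.96 in control livers on day 3, and 5.63 to 6.06 in rotenone and 6.39 to 6.66 in control livers on day 14. The erythroid list and Alox15 were thus both lowest in the rotenone livers of day 14. By mean, so were the macrophage (9.39), stellate cell (8.21), hepatocyte (17.25) and eosinophil, mast cell and neutrophil (4.81) lists, while the cholangiocyte and sinusoidal endothelial lists, among others, were not. On day 1, when Alox15 was higher by mean with rotenone, the erythroid mean was 6.77 in rotenone and 6.93 in control livers, and the macrophage mean 10.31 and 9.78. The part of red cell precursors in the Alox15 values was not tested. Of 12 macrophage markers, 3 rose on day 1 (limma, adjusted p between 0.033 and 0.036), 1 fell on day 3 and 4 fell on day 14. Their mean ranged over 10.11 to 10.58 in rotenone and 9.41 to 10.37 in control livers on day 1, and over 9.57 to 10.04 in rotenone and 9.20 to 10.06 in control livers on day 3. On day 14 it ranged over 9.02 to 9.69 in rotenone and 9.86 to 10.39 in control livers. Their part was not tested either. None of 14 eosinophil, mast cell and neutrophil markers passed on any day, and their mean stayed between 4.74 and 5.04, at the level of the negative control sets. Kit ranged over 6.10 to 6.99, Siglec5 over 5.91 to 6.81 and Cpa3 over 4.38 to 6.94, so that some lay above background. The part of these cells was not tested.

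**Figure D2:**
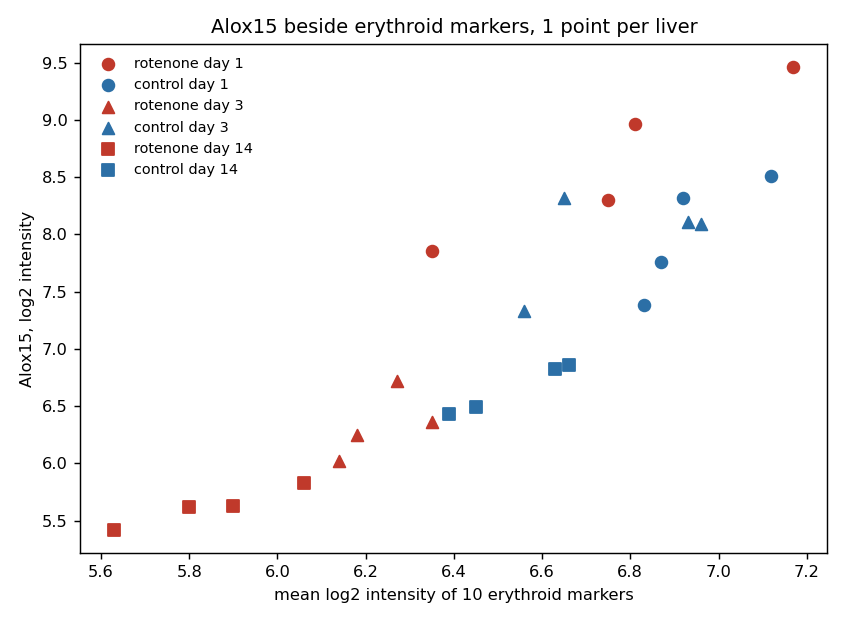
Log2 intensity of Alox15 (vertical axis) against the mean log2 intensity of 10 erythroid markers (horizontal axis), 1 point per liver, with rotenone livers in red, control livers in blue and a symbol for each day. Rotenone livers of day 14 lie at the lower left, with Alox15 between 5.42 and 5.83 and a marker mean between 5.63 and 6.06.

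The other lipoxygenases were at background. Alox5, Alox12 and Alox15b had group means between 4.67 and 5.05, and none of their changes passed. Of the 26 measured lipoxygenase and eicosanoid genes, 4 rose on day 1, 1 rose and 1 fell on day 3, and 3 rose and 2 fell on day 14, with median changes of -0.04, 0.08 and 0.05. Ephx2, the soluble epoxide hydrolase that opens fatty acid epoxides, rose on all 3 days by 1.99 ± 0.22, 1.17 ± 0.22 and 1.33 ± 0.22 (limma, adjusted p = 9e-06, 0.0029 and 0.00072). Cyp4a1, which hydroxylates the end of fatty acid chains, rose by 2.62 ± 0.38 on day 1 (limma, adjusted p = 0.00018), and Cyp4f1, an enzyme of the same kind, fell by 1.02 (SE 0.16) on day 14 (limma, adjusted p = 0.00033).

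Rab30 was 8.45-fold, 4.49-fold and 3.77-fold higher on days 1, 3 and 14. Levels on day 1 were 12.05, 9.95, 10.53 and 10.25 in rotenone livers, against 7.52, 7.52, 8.00 and 7.41 in control livers. On day 3 they were 9.72, 9.94, 9.35 and 9.69 with rotenone, and 7.58, 7.19, 8.00 and 7.26 in control. On day 14 the rotenone livers had 9.60, 10.35, 10.84 and 9.76, and the control livers 7.92, 7.32, 10.17 and 7.48. Control replicate 3 on day 14, at 10.17, lay among the rotenone livers, and the groups overlapped on that day through this liver alone. The difference was 3.08 ± 0.47, 2.17 ± 0.47 and 1.92 ± 0.47, and 2.56 on day 14 without that liver. Rotenone replicate 1 was the highest liver on day 1, and without it the difference was 2.63. The effect on day 14 minus that on day 1 was -1.16 ± 0.67. Control livers of days 1 and 3 lay above 85.8% to 93.1% and 85.9% to 92.2% of the negative control sets. The folds on these days may be understated. By mean the order was rotenone day 1, day 14 and day 3, then control day 14, day 1 and day 3, and every step overlapped with the next.

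Of 52 other Rab genes measured, 8 rose and 2 fell on day 1, 2 rose on day 3 and 2 rose on day 14, with medians of -0.01, 0.01 and 0.07. Rab17, a GTPase of epithelial endosomes, rose by 0.63 ± 0.13, 0.94 ± 0.13 and 1.17 ± 0.13 on days 1, 3 and 14 (limma, adjusted p = 0.0045, 0.00011 and 6.7e-06). Rab11b, of recycling endosomes, rose by 1.03 ± 0.15 on day 1 and 0.89 ± 0.15 on day 3 (limma, adjusted p = 0.00018 and 0.0011). Rab29, Rab32 and Rab33b did not pass on any day. Their changes lay between -0.47 and 0.45, with Rab32 on day 14 at 7.77 ± 0.24 in rotenone and 8.23 ± 0.26 in control livers (SD, n = 4 each, limma, adjusted p = 0.094).

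Stac3 was 24.3-fold lower on day 1, 8.07-fold on day 3 and 82.3-fold on day 14, when no other gene was lower by as much. Rotenone livers on day 1 had 9.96, 9.54, 10.40 and 8.45, and control livers 13.91, 14.26, 14.42 and 14.15. The day 3 values were 10.40, 10.93, 12.12 and 10.74 with rotenone, against 14.34, 14.35, 13.36 and 14.19 in control. On day 14 they were 10.08, 7.48, 7.20 and 6.81 with rotenone, and 14.43, 13.43, 13.98 and 15.17 in control. No rotenone liver reached a control liver on any day. Rotenone replicate 1 on day 14 kept a level of the day 1 livers, while the other three of its group were more than 2 lower. The difference was -4.60 ± 0.54, -3.01 ± 0.54 and -6.36 ± 0.54, and -7.09 on day 14 without that liver. Rotenone replicates 2, 3 and 4 on day 14 lay above 80.8% to 90.9% of the negative control sets, so the fold and its rank on that day rest on dim values and the fold may be understated. The effect on day 14 minus that on day 3 was -3.35 ± 0.77. The 3 control groups, whose means lay between 14.06 and 14.25, overlapped each other, and so did neighbours among rotenone day 3, day 1 and day 14.

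Because Stac3 is best known from skeletal muscle, 12 muscle markers were measured beside it, and none passed on any day. Their mean was 6.08 in control replicate 2 of day 3 and between 5.36 and 5.78 in all other livers. Acta1, the skeletal actin, ranged over 6.16 to 7.85, Myh4 over 5.00 to 6.69 and Ckm over 5.30 to 6.42, so that some lay above background. Stac3 itself was 14.35 in control replicate 2 of day 3, within the range of the other control livers, and the part of muscle tissue was not tested. Of the 19 STAC and excitation-contraction coupling genes measured, none passed on any day, and their median changes were -0.07, -0.01 and -0.01. Stac and Stac2, the other members of the family, had group means between 4.28 and 5.21, at background.

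Sntb1 was 2.35-fold higher on day 1, 2.94-fold on day 3 and 24.0-fold on day 14. Its day 1 levels were 9.26, 9.81, 8.76 and 10.27 with rotenone, and 7.52, 8.95, 8.24 and 8.46 in control. Livers of day 3 had 10.91, 9.73, 8.76 and 10.75 with rotenone, and 8.81, 8.23, 8.72 and 8.17 in control. On day 14 the rotenone livers had 11.57, 12.26, 12.53 and 12.73, against 7.99, 7.43, 8.27 and 7.06 in control livers. On days 1 and 3 rotenone replicate 3 lay within the control range, and on day 14 the groups were 3.30 apart at their nearest livers. The control livers of day 14 lay above 84.6% to 94.5% of the negative control sets, so the fold on that day may be understated. The difference was 1.23 ± 0.41, 1.56 ± 0.41 and 4.58 ± 0.41, and the effect on day 14 exceeded that on day 3 by 3.03 ± 0.58. Rotenone day 14 alone lay apart from the other groups, which overlapped in the order rotenone day 3, rotenone day 1, control day 3, control day 1 and control day 14.

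Among 16 measured genes of the dystrophin complex, 1 rose on day 1, and 2 fell on each of days 3 and 14, with medians of -0.02, -0.06 and -0.07. Sntb2, the beta-2-syntrophin, rose by 0.69 ± 0.17 on day 1 (limma, adjusted p = 0.016), a call that ended without rotenone replicate 1 or 3 of that day (limma, adjusted p = 0.060 and 0.057), and its changes of 0.28 on day 3 and 0.55 on day 14 did not pass (limma, adjusted p = 0.50 and 0.062). Lama2, a laminin chain that the complex binds outside the cell, fell by 0.72 (SE 0.14) on day 3 and by 0.63 (SE 0.14) on day 14 (limma, adjusted p = 0.0045 and 0.01), the second of which ended without rotenone replicate 2 of day 14 (limma, adjusted p = 0.056). Dag1, the dystroglycan that spans the membrane, fell by 0.45 (SE 0.09) on day 3 (limma, adjusted p = 0.0059). Of 12 stellate cell and fibroblast markers, 7 fell on day 3 and 6 on day 14, the same days on which Lama2 and Dag1 fell, and their part was not tested.

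Pkp2 was 2.09-fold higher on day 1, 2.15-fold lower on day 3 and 1.93-fold lower on day 14. Levels were 10.42, 10.87, 10.57 and 10.37 with rotenone on day 1, against 9.60, 9.57, 9.41 and 9.40 in control. Those of day 3 were 8.51, 8.79, 8.38 and 8.04 with rotenone, and 9.66, 9.28, 9.48 and 9.70 in control. Those of day 14 were 8.62, 8.44, 8.19 and 8.23 with rotenone, and 9.72, 8.78, 9.88 and 8.90 in control. All 4 rotenone livers were above all 4 control livers on day 1 and below them on days 3 and 14, with the nearest pair on day 14 only 0.16 apart. The difference was 1.06 ± 0.20, -1.10 ± 0.20 and -0.95 ± 0.20, and -0.76 on day 14 without control replicate 3. Rotenone day 1 lay apart at the top, and control day 3, day 1 and day 14 and rotenone day 3 and day 14 followed with overlap between neighbours.

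Other desmosomal genes did not turn in this way. Of 18 measured genes of desmosomes and adherens junctions, 1 rose and 1 fell on day 1, 2 rose on day 3 and 3 rose on day 14, with medians of -0.08, -0.01 and 0.10. Dsp, the desmoplakin that ties the plaque to keratin filaments, rose by 0.86 ± 0.17, 0.74 ± 0.17 and 1.40 ± 0.17 on days 1, 3 and 14 (limma, adjusted p = 0.003, 0.014 and 1.9e-05). The day 3 call ended without control replicate 4 or rotenone replicate 1 of that day (limma, adjusted p = 0.059 and 0.066). Pkp4, a plakophilin-related protein of cell junctions, rose by 0.86 ± 0.21 on day 3 and 1.00 ± 0.21 on day 14 (limma, adjusted p = 0.019 and 0.005), when Pkp2 was lower. Its day 3 call ended without control replicate 3 or 4 or rotenone replicate 1 of that day (limma, adjusted p = 0.051, 0.059 and 0.088). Perp, a membrane protein of desmosomes, fell by 0.68 (SE 0.14) on day 1 (limma, adjusted p = 0.0035). Pkp1 and Pkp3 had group means between 5.45 and 6.60 and did not pass on any day.

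Tcea3 ran the other way, 2.44-fold lower on day 1, 1.60-fold higher on day 3 and 2.08-fold higher on day 14. On day 1 its levels were 7.23, 7.94, 8.16 and 8.48 in rotenone livers, against 9.36, 9.32, 9.08 and 9.19 in control livers. On day 3 the values were 9.74, 10.21, 9.92 and 9.77 with rotenone, and 9.10, 9.25, 9.50 and 9.06 in control. On day 14 they were 10.07, 10.44, 10.31 and 10.28 with rotenone, against 9.55, 9.12, 8.75 and 9.46 in control. Rotenone livers lay below all control livers on day 1 and above all of them on days 3 and 14. Rotenone replicate 1 on day 1 lay above only 84.8% of the negative control sets, so the fold on that day may be understated. The difference was -1.29 ± 0.20, 0.68 ± 0.20 and 1.06 ± 0.20, and the effect on day 14 exceeded that on day 1 by 2.34 ± 0.28. Control livers kept their level, with means of 9.24, 9.23 and 9.22 on days 1, 3 and 14, below rotenone days 14 and 3 and above rotenone day 1, with gaps on both sides. Over all genes, 0.502% had livers that did not overlap on day 1 nor on day 14 and lay in opposite directions. Pkp2 and Tcea3 were among them, and both were chosen from these same values.

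Of 34 measured genes of RNA polymerase II elongation, 2 rose on day 1, 1 on day 3 and 2 on day 14, and none fell, with medians of 0.05, 0.00 and 0.09. Gtf2f2, a subunit of the general factor TFIIF, rose by 0.52 ± 0.10 on day 14 (limma, adjusted p = 0.0019). Tcea1, the TFIIS gene of most cells, averaged 11.49 ± 0.07 in rotenone and 11.59 ± 0.17 in control livers on day 1 (SD, n = 4 each), and its changes of -0.10, -0.12 and 0.13 did not pass (limma, adjusted p = 0.68, 0.70 and 0.62). Tcea2 was at background, with group means between 5.01 and 5.18.

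**Figure D3:**
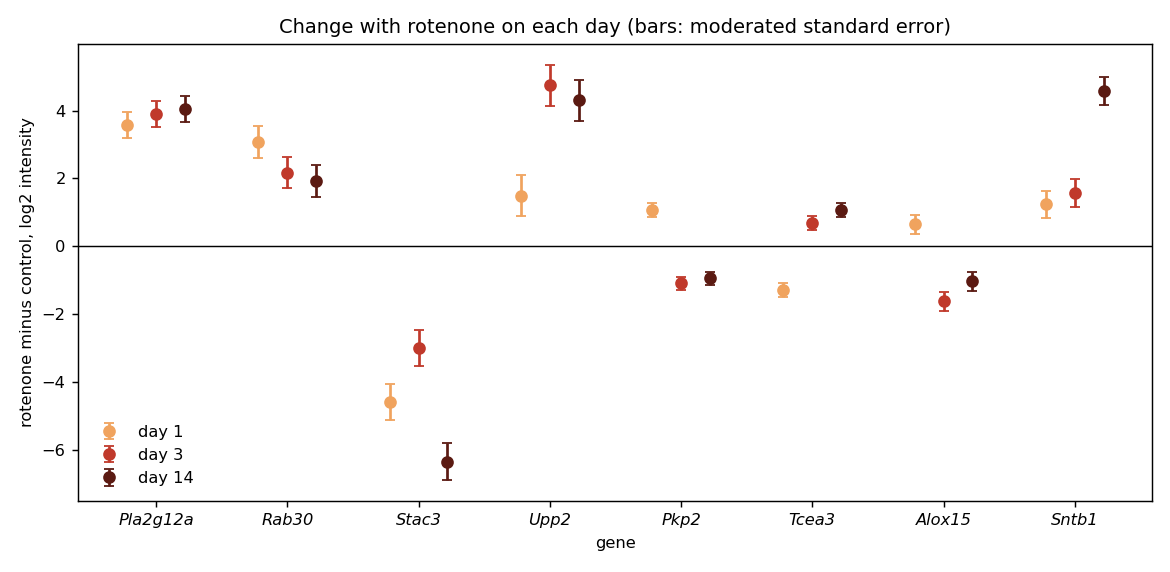
Rotenone minus control difference in log2 intensity of each of the 8 genes on days 1, 3 and 14, with bars for the moderated standard error (n = 4 livers per group). Stac3 lies below 0 on each day, down to -6.36 on day 14, and Pkp2 and Tcea3 lie on opposite sides of 0 on day 1 (1.06 and -1.29) and on day 14 (-0.95 and 1.06).

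**Figure D4:**
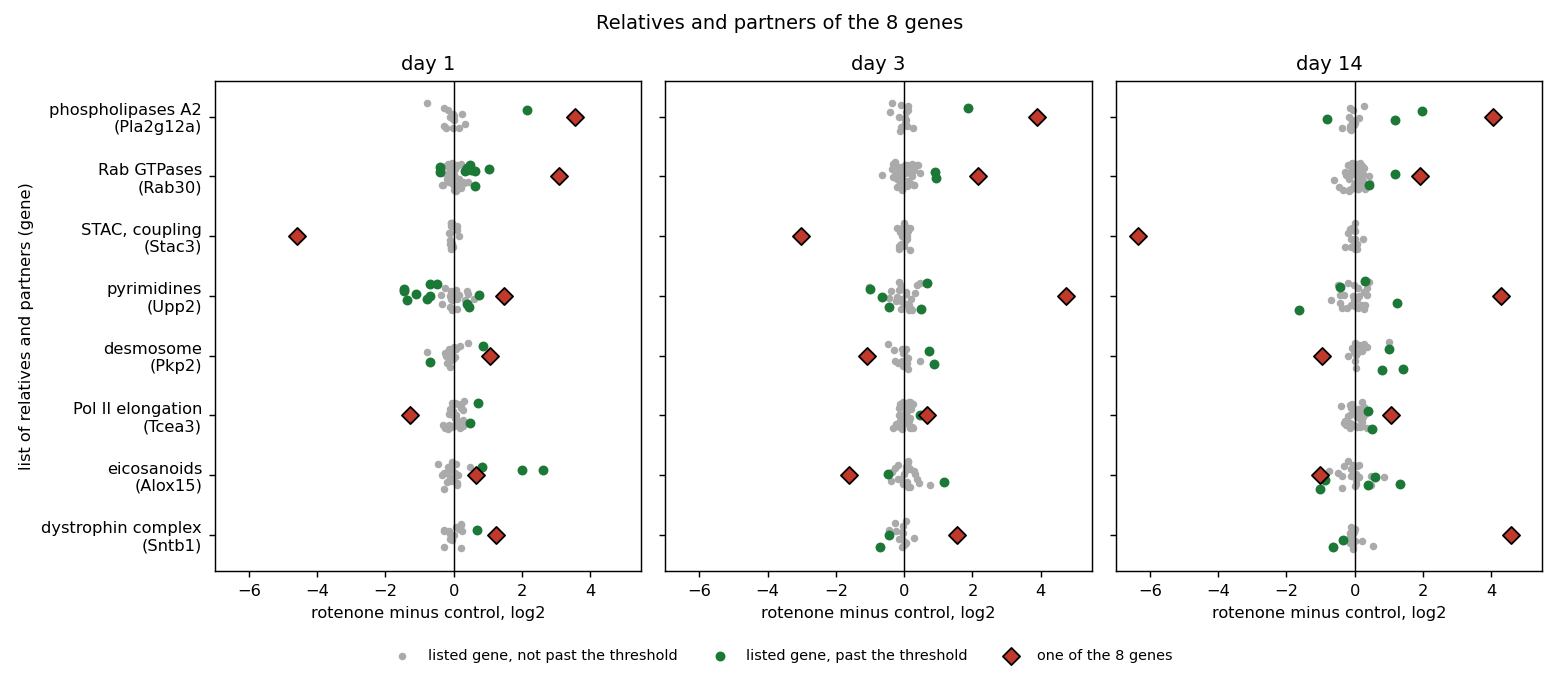
Rotenone minus control difference in log2 intensity on days 1, 3 and 14 for the 212 measured relatives and partners of the 8 genes, by list. Green points passed the limma test (day 1: 20 higher, 11 lower, day 3: 9 higher, 6 lower, day 14: 14 higher, 7 lower), grey points did not, and red diamonds mark the gene to which each list belongs.

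The 8 lists held 212 measured genes, of which 14.6% passed on day 1, 7.08% on day 3 and 9.91% on day 14, beside 9.41%, 6.64% and 9.31% of all genes. The share was thus near that of all genes on days 3 and 14 and above it on day 1, when pyrimidine and Rab genes made up most of the calls, with 11 and 10 genes of the 31 in total.

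Control livers were also compared between days. The same control livers entered the choice of the 8 genes, so these comparisons are not independent of it. Between day 3 and day 1, day 14 and day 1, and day 14 and day 3, 0 of the 8 genes passed (limma, adjusted p under 0.05), where 0.0%, 0.177% and 0.299% of all genes passed. At an unadjusted p under 0.05 there were 0, 1 and 2 of the 8, beside 2.81%, 6.03% and 5.93% of all genes. Alox15 had the smallest adjusted p of the 8 genes, with a difference of -1.34 ± 0.28 (log2) for control day 14 minus day 1 (limma, adjusted p = 0.097) and -1.31 ± 0.28 for day 14 minus day 3 (limma, adjusted p = 0.09). Its control levels of day 14 lay above only 71.4% to 81.3% of the negative control sets, so these differences rest on dim values. All 4 control livers of day 14 lay below all 8 of the earlier days, and this was the 1 gene of the 8 without overlap in these 2 comparisons, where 3.66% and 4.5% of all genes did not overlap, with 0 of 8 (2.82% of all genes) between days 3 and 1. The first of them passed without control replicate 1 of day 1 (-1.54, limma, adjusted p = 0.032) or without rotenone replicate 1 or 3 of day 1, which enter only the estimate of the spread (limma, adjusted p = 0.048 and 0.047). The second passed without control replicate 3 of day 3 (-1.52, limma, adjusted p = 0.04) or the same rotenone livers (limma, adjusted p = 0.041 and 0.046). The difference of Upp2 between control livers of day 14 and day 3 was 1.78 ± 0.61 (limma, adjusted p = 0.62).

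Across the 24 livers the 8 genes fell into groups that varied together. Pearson's r was 0.88 between Pla2g12a and Rab30, 0.87 between Pla2g12a and Upp2, 0.82 between Upp2 and Sntb1, and -0.89 between Stac3 and each of Pla2g12a and Sntb1. Pkp2 and Alox15 had r = 0.83, and Tcea3 had r = -0.88 with Pkp2 and -0.83 with Alox15. These values describe 24 arrays that share the group differences on which the genes were chosen. With each group's mean removed, r was 0.69 between Rab30 and Upp2, 0.62 between Pla2g12a and Rab30, 0.54 between Pla2g12a and Pkp2 and 0.47 between Pla2g12a and Upp2. Among negative values were -0.65 between Stac3 and Sntb1 and -0.51 between Rab30 and Tcea3. Others were -0.47 between Stac3 and Upp2 and between Upp2 and Alox15, and -0.43 between Tcea3 and Alox15. Control replicate 3 on day 14 entered these values. It was the highest of its group in Pla2g12a (8.00), Rab30 (10.17) and Upp2 (10.77), and r without it was not computed. With group means removed, r was -0.16 between Pla2g12a and Stac3, -0.07 between Pkp2 and Tcea3 and 0.08 between Pkp2 and Alox15. The r of these pairs over all livers came mostly from the differences between groups.

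**Figure D5:**
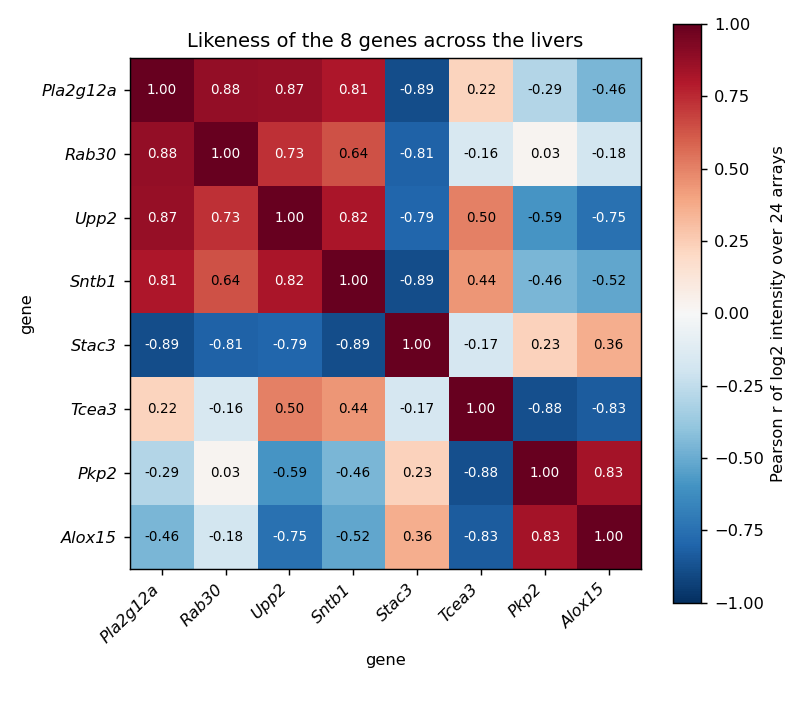
Pearson's r of log2 intensity over the 24 livers between each pair of the 8 genes, with red for positive and blue for negative values. Pla2g12a, Rab30, Upp2 and Sntb1 form one block (r between 0.64 and 0.88) opposite to Stac3, and Pkp2 and Alox15 (0.83) stand opposite to Tcea3 (-0.88 and -0.83).

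Among 14872 genes with a mean above background, those whose levels were most like each of the 8 genes over the 24 livers were found by Pearson's r, again as a description. Pla2g12a was most like Asl, a urea cycle enzyme that releases arginine (r = 0.97), then Sh3d19 and Ctsl (0.96 each), and least like C2cd2 (-0.95). Asl itself was higher by 2.52, 2.55 and 2.76 on days 1, 3 and 14. For Rab30 they were Slc22a5, the carnitine transporter (0.96), Ablim3 and Acot2 (0.94 each), and the lowest was Srebf1 (-0.93), the transcription factor of fatty acid synthesis, whose differences were -3.26, -1.71 and -1.18. With group means removed, r was between 0.50 and 0.68 for the first 3 genes of Pla2g12a, between 0.80 and 0.84 for those of Rab30, and -0.81 for Srebf1. Upp2 was most like Pbld2 (0.96), Pbld1 (0.95) and Plpp3 (0.94), and least like Brwd3 (-0.94), at 0.70, 0.61, 0.79 and -0.72 with group means removed.

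Stac3 was closest to Nrep (0.95), whose difference was -1.82, -2.09 and -3.32, then to Tnfsf13 and Lypla1 (0.94 each), and farthest from Plekhg5 (-0.97). Sntb1 was closest to Slc5a6, the multivitamin transporter (0.95), Aldh1a1, a retinaldehyde dehydrogenase (0.94), and Tex36 (0.93), and farthest from Smim14 (-0.94). With group means removed, r was between 0.61 and 0.75 for the genes closest to Stac3 and between 0.62 and 0.75 for those closest to Sntb1. Like Sntb1, Aldh1a1 had its widest difference on day 14, at 4.14, after 1.52 on day 1 and 1.39 on day 3.

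For the 3 genes whose mean difference changed its sign, Adss1 was among the named genes each time and Ccnd1 for Pkp2 and Tcea3. Pkp2 was closest to Ccnd1, the cyclin D1 of the G1 phase (0.89), Nkiras1 (0.89) and Zmiz2 (0.87), and farthest from Adss1 (-0.91), an adenylosuccinate synthase. With group means removed these were 0.14, 0.32, 0.13 and -0.36, so that the likeness of Pkp2 lay mostly in the differences between groups. Tcea3 was closest to Adss1 and Mgst2 (0.94 each) and Iyd (0.93), and farthest from Ccnd1 (-0.93), at 0.62, 0.58, 0.65 and -0.42 with group means removed. The differences of Ccnd1 were 1.70, -0.98 and -1.25 on days 1, 3 and 14, and those of Adss1 -0.80, 0.70 and 0.91. Alox15 was closest to Cdc25b, a phosphatase of the cell cycle (0.94, and 0.90 with group means removed), the erythroid marker Slc4a1 (0.93, and 0.77) and Ipo9 (0.91, and 0.53), and farthest from Adss1 (-0.89, and -0.42).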

How the data were processed

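The authors isolated total RNA from 24 livers, hybridised each to its own Rat Transcriptome Array 1.0, corrected probes with GCCN and SST and condensed them with RMA, and deposited 1 linear intensity per transcript cluster. Here log2(intensity + 1) was taken, 1738 control probe sets were removed and 68842 clusters kept, 23446 of them with 1 symbol. A gene was represented by its brightest single-symbol cluster. limma 3.58.1 in R 4.3.3 fitted 6 group means to all 24 arrays, with two-sided p-values adjusted by Benjamini-Hochberg over all clusters and a threshold of 0.05. On simulated data with normal noise it recovered most of the largest planted changes, which were placed in the brighter clusters. Recovery of smaller changes is not given here. Each array is 1 rat, and p-values measure the spread between rats. Of 343 listed genes 323 were found. The members and lists were chosen with earlier results of these data known. Named relatives were family members listed as close, with no measure of closeness taken. To these were added, per list and day, up to 2 genes higher and 2 lower with the largest change among those past the threshold without overlap. Of the latter, the text gives those that kept their call without any 1 array and a few others with the arrays named, a restriction set after the values were seen. Upb1 was named for its difference between days. Alternatives were another pseudocount, filter, variance prior, array weights, scaling, a replicate block, fewer arrays, the methods' filter and leaving out each array. Motifs were counted in the 250 bases before each RefSeq start. Scan dates were not given in the sources used here.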

Additional observations from a re-analysis of the deposited data

Results flagged for a closer look

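In a group of 4 livers, an array was noted where its gap to the nearest other array was above Dixon's 95% critical value, which chance alone meets in about 1 of 20 groups. This held for 16 of 324 groups, 1 in 20. Among the 8 genes it named Pla2g12a in rotenone replicate 1 on day 14, at 10.64 beside 11.46 to 11.53 in the others, Stac3 in control replicate 3 on day 3, at 13.36 beside 14.19 to 14.35, and Upp2 in control replicate 3 on day 14, at 10.77 beside 8.26 to 8.59. Rotenone replicate 1 on day 14 was also the lowest of its group in Upp2 (11.82) and Sntb1 (11.57) and the highest in Stac3 (10.08), and without it the day 14 differences were 4.26 for Pla2g12a, 4.79 for Upp2, 4.82 for Sntb1 and -7.09 for Stac3. Without control replicate 3 on day 14 they were 4.31 for Pla2g12a, 2.56 for Rab30 and 4.88 for Upp2.

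Among the relatives, the outlying arrays on day 1 were rotenone replicate 2 for Dag1 (12.57) and Tk2 (7.40), rotenone replicate 3 for Rab32 (7.99), control replicate 1 for Dsp (11.09) and control replicate 4 for Tyms (9.61). Those of day 3 were rotenone replicate 2 for Pla2g12b (10.68), rotenone replicate 3 for Sntb2 (8.38) and control replicate 4 for Tcea2 (4.99). Those of day 14 were rotenone replicate 1 for Alox5 (4.74) and Ctps2 (9.37), control replicate 2 for Rab32 (7.84) and control replicate 3 for Alox15b (4.58) and Stac2 (4.93).

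The effect of rotenone differed between days in Pkp2, at 1.06 on day 1 against -1.10 on day 3 and -0.95 on day 14, and in Tcea3, at -1.29 on day 1 against 0.68 on day 3 and 1.06 on day 14, with all 4 livers on opposite sides of control. These differences were not tested, because they come from the same values on which the genes were chosen. Among relatives and partners, limma's test of the difference between effects passed for 8 genes. The effect on day 14 exceeded that on day 1 in Pla2g16 by 1.97 (adjusted p = 0.032), in Upb1 by 1.10 (adjusted p = 0.00023), in Ctps2 by 1.07 (adjusted p = 0.043) and in Nelfe by 0.63 (adjusted p = 0.041). In Upb1 the effect on day 3 also exceeded that on day 1, by 1.00 (adjusted p = 0.0025), and in Dsg2, a desmosomal cadherin, that on day 14 exceeded that on day 3 by 1.07 (adjusted p = 0.035). It was lower on day 14 than on day 1 in Ptgs1 (-1.60, adjusted p = 0.021), Lama2 (-0.84, adjusted p = 0.047) and Dag1 (-0.56, adjusted p = 0.043), and lower on day 3 than on day 1 in Dag1 (-0.67, adjusted p = 0.045).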

How the results depend on the processing

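The 24 differences of the 8 genes kept their direction, and moved by less than the spread between livers, in 192 of 192 values under other settings and in 576 of 576 values with 1 array left out. Much of this was fixed in advance. A difference cannot move when the array left out belongs to neither group compared. The filter on level, the variance prior, the replicate block and the fit to fewer arrays do not move it either. The genes were also chosen for these differences, so nothing is read from the counts. Of 45 values of named relatives, 334 of 360 under other settings and 1005 of 1080 with 1 array left out kept their call, and none changed its sign. Leaving out 1 array gave between 0 and 1 of the 8 genes past the threshold between control livers of day 14 and day 1 or day 3, and Alox15 between days 3 and 1 ran between -0.23 and 0.18 around -0.03, with the other sign (0.08, 0.14 and 0.18) without control replicate 3 or 4 of day 1 or control replicate 3 of day 3. Each of the 8 genes has 1 cluster, so averaging clusters changed nothing.

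Counts of relatives depended more on the setting. With only the arrays of the groups compared, 8 rose and 5 fell on day 1, 3 fell on day 3, and 7 rose and 1 fell on day 14, with fewer degrees of freedom. The methods' filter gave 4 higher and 1 lower on day 1, 4 and 0 on day 3, and 4 and 0 on day 14. Centring on array medians gave 5 lower on day 1, and 0 and 1 markers higher on days 3 and 14. Clusters above the median alone gave 11 lower on day 3 and 15 on day 14, a pseudocount of 16 gave 12 and array weights 11 lower on day 14. The cause was not tested. Leaving out 1 array gave 12 to 21 higher and 5 to 12 lower on day 1, 5 to 10 and 4 to 7 on day 3, and 10 to 17 and 2 to 15 on day 14. The extremes came without rotenone replicate 3 (12 higher) and rotenone replicate 2 or control replicate 4 of day 1 (5 lower), without rotenone replicate 1 or control replicate 4 of day 3 (5 higher), and without rotenone replicate 4 (2 lower) or 1 (15 lower) of day 14. Markers gave 2 to 11 higher and 0 to 1 lower on day 1, 0 to 1 higher on day 3 and 1 to 3 higher on day 14.

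Replicate numbers did not pair the livers: same-numbered arrays had a mean correlation of deviations of 0.013, and 5 of 24 arrays correlated best with their own number. With the replicate block, 18 rose and 10 fell on day 1, 8 and 5 on day 3, and 13 and 7 on day 14, and 0 of the 8 genes differed between control days. Some livers had dim levels of Alox15, Pla2g12a, Upp2, Stac3, Rab30, Sntb1 or Tcea3 near the negative control sets. With such levels and 4 arrays per group, small differences at low levels cannot be measured.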
